A study of Mus musculus with 2 samples.

Results

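Ccl2, Ccl7, Ccl12 and Ccl24 encode secreted CC chemokines, and they were taken by symbol from both count tables, 4 features of 31053. Each symbol stood on a single row. Their transcripts were followed in border-associated macrophages, microglia, monocytes and neural cells of the embryonic mouse brain. The stressed library held cells of 5 embryos of 1 CD1 dam that had spent 30 min per day at 4 °C over 5 days, from E11.5 to E15.5. The control library held cells of 10 embryos of 1 CD1 dam without that exposure. CD1 is an outbred stock, no allele was engineered in either group, and both pools were collected at E15.5. From each, hypothalamic and thalamic tissue was pooled, and cells carrying the myeloid and blood cell proteins Cd11b and Cd45 were sorted before droplet capture. With 1 library per condition no test between conditions was possible. The intervals below are 95% intervals of counting error only and leave out the spread between embryos and dams. For UMI sums and their ratios they also leave out the spread between cells.

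CC chemokines draw leukocytes along a gradient by binding receptors on them. Ccl2, Ccl7 and Ccl12 form the monocyte chemoattractant group of the mouse and act through Ccr2, the receptor by which monocytes leave the bone marrow and enter tissue, and Ccl7 also binds Ccr1 and Ccr3. Ccl24, or eotaxin-2, binds Ccr3 on eosinophils and is typical of macrophages in an alternatively activated state. Border-associated macrophages lie in the meninges, the choroid plexus and around vessels, whereas microglia lie within the brain tissue.

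The monocyte chemoattractant genes are neighbours on the plus strand of mouse chromosome 11 (GRCm38, GENCODE M21), and Ccl24 lies apart. Ccl2 (ENSMUSG00000035385) runs from 82035571 to 82037453, Ccl7 (ENSMUSG00000035373) from 82045712 to 82047525, and Ccl12 (ENSMUSG00000035352) from 82101845 to 82103400. Ccl24 (ENSMUSG00000004814) is on the minus strand of chromosome 5, from 135569937 to 135573049. All 4 genes have 3 exons. The stretches of coding sequence below, 60 bases each and read from the reference transcripts of the same annotation, show the family trait. Capitals mark the codons of the neighbouring cysteines that give CC chemokines their name. Ccl24 has 2 such codon pairs, and the later one is shown.
Ccl2: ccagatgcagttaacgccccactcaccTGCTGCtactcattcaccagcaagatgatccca
Ccl7: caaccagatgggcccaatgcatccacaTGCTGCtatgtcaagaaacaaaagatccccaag
Ccl12: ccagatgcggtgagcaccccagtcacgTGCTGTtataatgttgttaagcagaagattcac
Ccl24: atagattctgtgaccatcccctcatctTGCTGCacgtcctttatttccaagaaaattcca

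Outside the shared codons the sequences diverge enough for reads to be told apart. Over aligned coding bases, Ccl2 was 72.1% identical to Ccl7 and 69.7% to Ccl12, and Ccl7 was 69.1% identical to Ccl12. Ccl24 was 63.7% identical to Ccl12, 67.5% to Ccl2 and 69.3% to Ccl7. Within the last 400 bases of the transcripts, where 3′ libraries read, no run longer than 9 bases was shared between any of the 4. The coding sequence of Ccl2 is 444 bases long, against 291 bases for Ccl7 and 312 bases for Ccl12. Gm17268, annotated on the strand opposite Ccl2 and overlapping it, had 0 UMIs in every class of both libraries.

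After cells with under 500 genes or over 10% mitochondrial transcripts had been removed, 1407 stressed and 1068 control cells remained. The stressed library was deeper, with 6582188 UMIs (unique molecules counted) and a median of 3767 UMIs per barcode, against 2833015 UMIs and a median of 1947.5 in the control library. They shared 13 barcodes before this filter and 1 after it, and that 1 held 0 UMIs of the 4 genes. Cells were assigned to a class by which of 4 lists of 10 markers they showed most members of, with a lead of at least 2 markers, and no chemokine was among the markers. The border-associated macrophages numbered 22 stressed cells (1.56%) and 77 control cells (7.21%). Microglia numbered 1106 and 610, monocytes (a class that takes in granulocytes) 15 and 23, and neural cells 142 and 195 in the stressed and control libraries, and 122 and 163 cells stayed unassigned. The labels call all of these cells microglia. Pf4, the platelet factor gene that border-associated macrophages are known to express and that was no marker of the assignment, stood at 5835 and 6560 CPM (UMI counts scaled to the total of the class) in stressed and control border-associated macrophages, against 21.2 and 31.7 CPM in microglia. The markers themselves are high in their class by construction and are no check of it: the hyaluronan receptor gene Lyve1 had 826.5 and 744 CPM in border-associated macrophages, and 1.78 and 0 CPM in microglia. Ltc4s, a leukotriene synthase gene of the same list, separated the classes less, with 435 and 564 CPM against 322.5 and 416 CPM. P2ry12, a purinergic receptor gene on the microglial list, stood at 832 and 965 CPM in microglia, against 21.4 and 50.05 CPM in border-associated macrophages. The sex make-up also differed, since 21 of the 22 stressed border-associated macrophages had Xist and no Y-linked transcript, against 24 of 77 control ones, and 24 control cells had the reverse. In every stressed class, 0 cells had a Y-linked transcript without Xist, whereas 117 of 610 control microglia did. Sex make-up thus differed along with the exposure in all classes, and its part was not tested.

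In border-associated macrophages, the transcripts of the 3 monocyte chemoattractants were low in the stressed library and abundant in the control library, while Ccl24 stood at close levels in both. Ccl2 had 5 UMIs in stressed cells and 148 in control cells, which equals 35.6 CPM (11.6 to 83.1) in stressed and 494 CPM (417.5 to 580) in control cells. The log2 ratio was −3.79 (−5.44 to −2.54), a level 13.9 times lower in the stressed library. Ccl12 had 3 UMIs in stressed cells and 119 in control cells, or 21.4 CPM (4.41 to 62.5) against 397 CPM (329 to 475). Its log2 ratio was −4.22 (−6.51 to −2.63), and it was −2.19 in thinned cells and −1.42 with classes from Leiden clusters, where the border-associated cluster also takes in monocytes. Ccl7 had 4 UMIs in stressed cells and 44 in control cells, or 28.5 CPM (7.77 to 73.0) against 147 CPM (107 to 197), and its ratio was −2.37 (−4.30 to −0.91). None of these 3 pairs of intervals overlapped, but they treat UMIs of the same cell as independent counts. Ccl24 had 63 UMIs in stressed cells and 140 in control cells, or 449 CPM (345 to 574) against 467 CPM (393 to 551), with a ratio of −0.06 (−0.51 to 0.38).

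These ratios can be read against all genes of at least 50 CPM in the same sums. Of 2744 such genes, 7.73% were at least 2-fold lower in stressed border-associated macrophages and 5.43% at least 2-fold higher. Of the 4 chemokines, 3 were past the lower limit and none past the upper one. The median log2 ratio of all these genes was −0.043, and thus far from that of Ccl2, Ccl7 and Ccl12 and close to that of Ccl24.

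**Figure D1:**
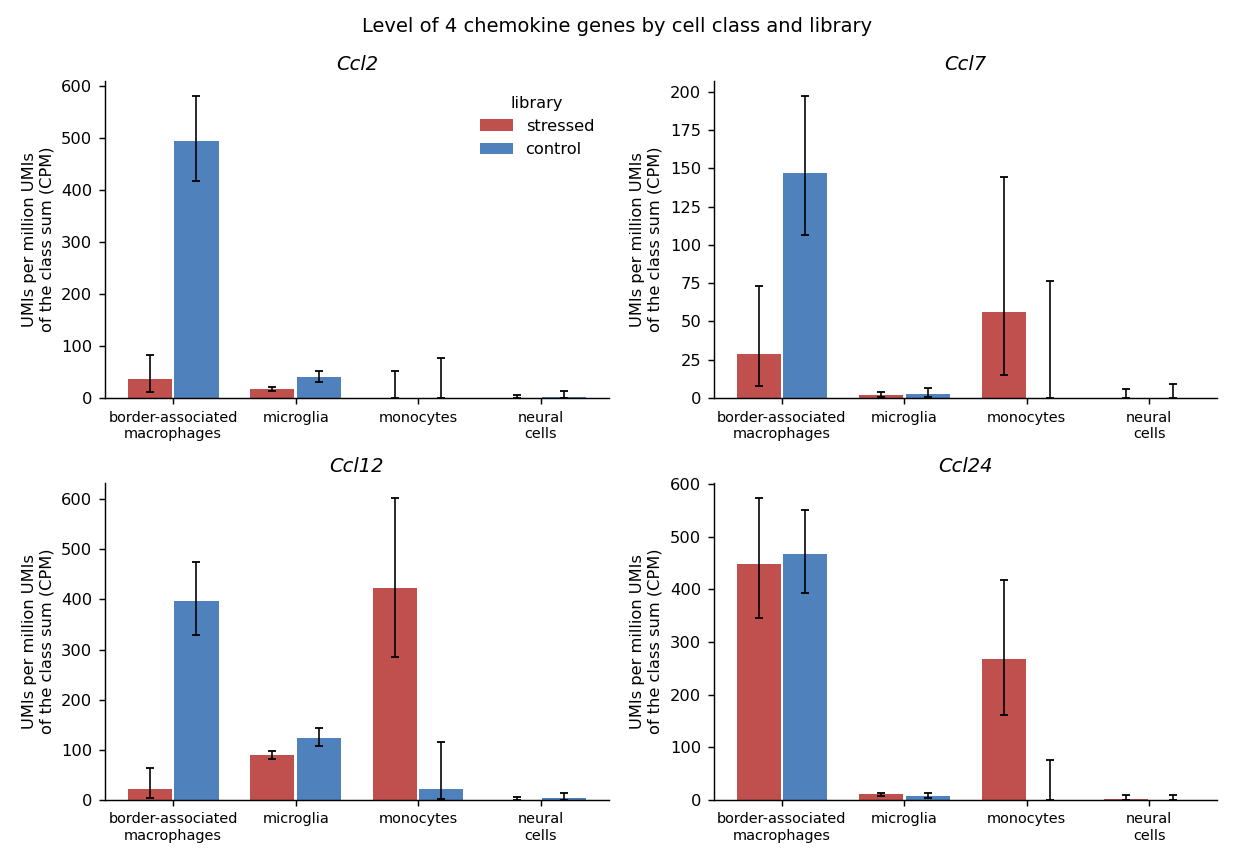
Level of each gene in CPM of the class sum (linear axes that differ between panels) by cell class, with the stressed library in red and the control library in blue. Bars are single libraries and error bars are exact 95% Poisson intervals. Ccl2, Ccl7 and Ccl12 are low in stressed border-associated macrophages and high in control ones, Ccl24 is alike in both at 449 and 467 CPM, and the stressed monocyte bars of Ccl7 and Ccl12 come from 1 cell.

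The chemoattractant transcripts of control border-associated macrophages lay in few cells. For Ccl2, 1 cell held 91 of the 148 UMIs (61.5%), the next held 17 and 15, and the other 15 positive cells held 1 to 3 each. That leading cell had 11652 UMIs in all and also held 43 of the 119 UMIs of Ccl12. It showed 6 border-associated and 2 microglial markers, and its doublet score was not among the highest of the library. In the stressed library, 4 of 22 cells held Ccl2, with 1 or 2 UMIs each. Without the leading cell of each sum the ratio was −3.09 for Ccl2 (3 UMIs in 21 stressed cells and 57 in 76 control cells) and −2.73 for Ccl7. All 3 stressed UMIs of Ccl12 lay in 1 cell, so removing that cell left 0 by construction, against 76 in the control cells. The log2 ratio of Ccl12 was then −3.59 or lower, with 3 counts as the floor of the stressed sum. That floor equals the stressed count before removal, so for Ccl12 the step changed only the control sum. The ratios of Ccl2 and Ccl7 thus stayed below 0 without 1 leading cell in each sum, although the size of the Ccl2 ratio moved. Removal of the next Ccl2 cells, with 17 and 15 UMIs, was not tried, so most of the Ccl2 sum still lay in few cells.

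Ccl24 was spread more evenly over the same cells. It was detected in 12 of 22 stressed and 40 of 77 control border-associated macrophages, or 54.5% and 51.9% of them. The highest stressed cell held 20 of the 63 UMIs (31.7%), and the highest control cell 10 of the 140 (7.14%). Positive cells held a median of 3 UMIs in both libraries.

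**Figure D2:**
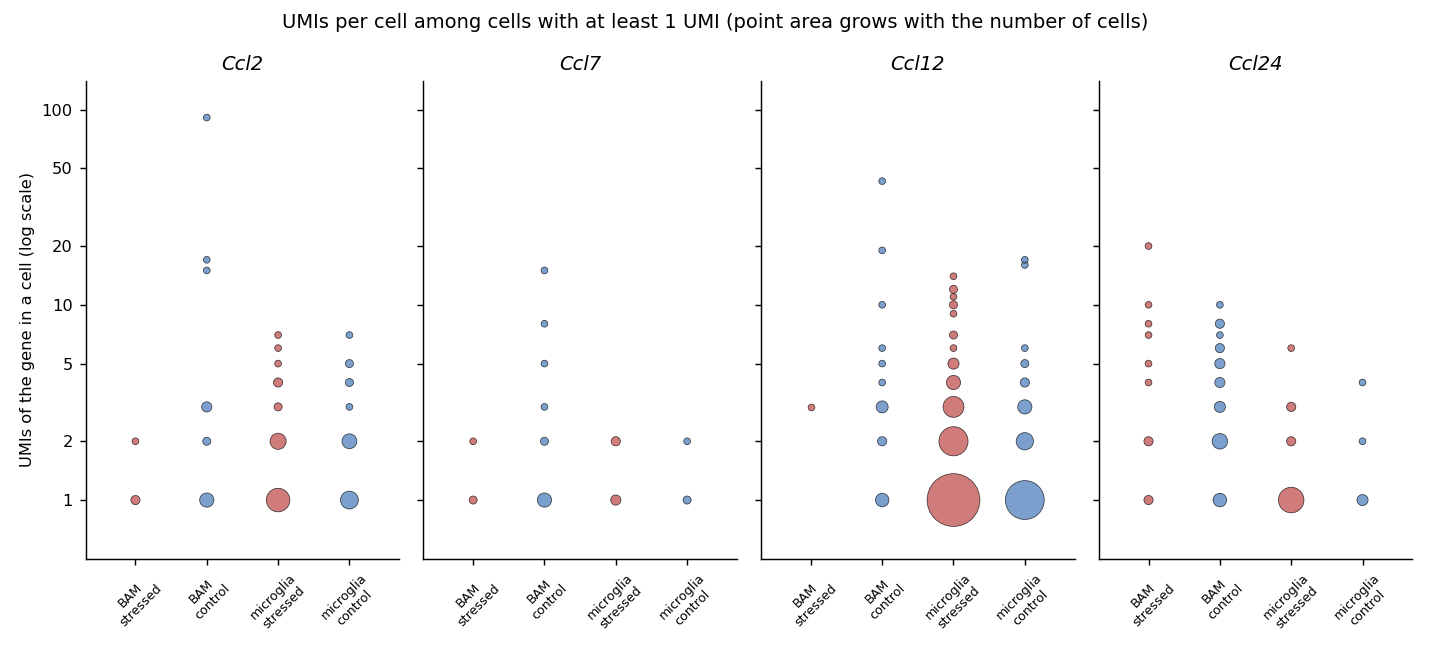
UMIs of each gene in single cells (log scale), for cells with at least 1 UMI, in border-associated macrophages (BAM) and microglia of the stressed and control libraries. Point area grows with the number of cells at that value. The top control BAM points of Ccl2 (91 UMIs) and Ccl12 (43 UMIs) are the same cell, and Ccl24 has no such leading point in the control library.

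The border-associated macrophages had a median of 5476 UMIs in the stressed library and 3293 in the control library. When all cells were thinned to 1000 UMIs, with no cell of this class too shallow, Ccl2 was found in 0 of 22 stressed cells, a count of 0 that allows a share of up to 13.6%, and in 9.09% of control cells (3.73 to 17.8%). Ccl7 was found in 0 of 22 stressed cells and 6.49% of control cells (2.14 to 14.5%), and Ccl12 in 0 of 22 and 19.5% (11.3 to 30.1%). That limit of 13.6%, set by a floor of 3 cells, lies inside all 3 control intervals. The exact upper limit for 0 of 22 is 15.4%, which lies above the Ccl7 interval and inside those of Ccl2 and Ccl12. Such overlap does not show that the shares are alike, and their difference was not tested at this number of cells. Ccl24 was found in 27.3% (10.7 to 50.2%) and 35.1% (24.5 to 46.8%). Unthinned, the shares in stressed and control cells were 18.2% and 23.4% for Ccl2, 13.6% and 19.5% for Ccl7, and 4.55% and 29.9% for Ccl12. The share of cells with Ccl2 or Ccl7 thus differed less than their UMI sums did. Neural cells, which should lack these genes, had 0 thinned cells with any of the 4 (0 of 135 stressed cells, up to 2.22%, and 0 of 166 control cells, up to 1.81%), at median depths of 3200 and 1515 UMIs.

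Among border-associated macrophages with Xist and no Y-linked UMI, the 3 chemoattractants were again lower in the stressed library. Over 21 stressed and 24 control cells, Ccl2 had 5 and 37 UMIs (ratio −3.42, −5.12 to −2.07), Ccl7 had 4 and 26 (−3.23, −5.21 to −1.71) and Ccl12 had 3 and 15 (−2.85, −5.28 to −1.03). Ccl24 had 63 UMIs in these stressed cells and 29 in the control cells. Its ratio was then 0.59 (−0.07 to 1.28), turned from the −0.06 of all cells. With the libraries so different in sex make-up, a comparison of cells with Y-linked transcripts gave no value.

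Genes that respond to tissue dissociation moved with the chemoattractants in this class. Their 14 members summed to 249 CPM (174 to 347) in stressed and 467 CPM (393 to 551) in control border-associated macrophages. Of 11 measured members (at least 10 CPM in either sum), 6 were at least 1.5-fold lower and 0 higher in the stressed library, with a median log2 ratio of −0.91 over the 9 with enough counts for a ratio, where 19.8% of all genes of that level were lower and 16.8% higher. Jund and Fos, subunits of the AP-1 transcription factor, had 64.1 and 7.13 CPM in stressed cells against 153.5 and 16.7 CPM in control cells. Of the 6, Jund alone had an interval that excludes 0 (−1.26, −2.48 to −0.21). Fos rests on 1 stressed and 5 control UMIs (−1.23, −6.79 to 1.93). In the control library, cells with a Ccl2 UMI had 687 CPM (522 to 888) of these transcripts and cells without had 381 CPM (303 to 473). The leading Ccl2 cell is among the cells with Ccl2, and 0.197% of its 11652 UMIs came from the list, a larger share than in either group. The 2 values were not recomputed without it. Control cells with Ccl2 were also deeper, at a median of 4197 against 2808 UMIs. In the stressed library the values were 461 CPM (252 to 774) in 4 cells with Ccl2 and 191 CPM (118 to 292) in 18 without, and these intervals overlap. Among the cells of each sum with the lower share of dissociation transcripts, Ccl2 had 0 UMIs in 11 stressed cells and 21 in 38 control cells, so that its log2 ratio was −1.73 or lower. Ccl12 had 0 and 19 UMIs there, a ratio of −1.58 or lower, and Ccl7 had 3 and 26, a ratio of −2.04 (−4.41 to −0.33). In microglia the list stood higher in the stressed library, at 433 CPM (414.9 to 451) against 384 CPM (354 to 416.2) in the control library. These intervals overlapped only at their edges. Of 9 measured members, 1 was higher and 0 lower, where 3.58% and 8.31% of all genes were.

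Microglia held lower levels of Ccl2 and Ccl12 in the stressed library as well, by smaller factors. Ccl12 was the member most widely found in microglia, in 228 of 1106 stressed cells (20.6%) and 107 of 610 control cells (17.5%). It had 447 UMIs in stressed and 192 in control microglia, or 88.5 CPM (80.5 to 97.2) against 124 CPM (107 to 143), for which the log2 ratio was −0.49 (−0.73 to −0.24). With a stricter cell filter (at least 1000 genes and at most 5% mitochondrial transcripts) that ratio was −0.0060 (−0.36 to 0.36), so the difference in Ccl12 was not seen among the cells that pass it. Ccl2 had 87 UMIs in stressed and 63 in control microglia, or 17.2 CPM (13.8 to 21.3) against 40.7 CPM (31.3 to 52.1), and the ratio was −1.24 (−1.73 to −0.75). Among microglia with the lower share of dissociation transcripts it was −0.58 (−1.41 to 0.31). The cells with Xist and no Y-linked UMI gave −1.11 (−1.82 to −0.32).

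Ccl7 and Ccl24 were rare in microglia. Ccl7 had 10 UMIs in stressed and 4 in control microglia, or 1.98 CPM (0.950 to 3.64) and 2.59 CPM (0.705 to 6.62), and the intervals overlapped. Ccl24 had 53 UMIs in stressed and 11 in control microglia, or 10.5 CPM (7.86 to 13.7) against 7.11 CPM (3.55 to 12.7). This ratio of 0.56 (−0.39 to 1.65) turned to −0.49 among cells with Xist and no Y-linked UMI. Thinned shares were 1.63% (0.968 to 2.56%) and 3.58% (2.23 to 5.43%) of stressed and control microglia for Ccl2, 8.51% and 9.56% for Ccl12, 1.18% and 0.512% for Ccl24, and 0.181% and 0.171% for Ccl7. This left out 1 stressed and 24 control microglia with under 1000 UMIs.

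Read against all genes, Ccl2 was past the limit in microglia and Ccl12 was not. Of 7625 genes of at least 10 CPM, 8.31% were at least 1.5-fold lower in stressed microglia and 3.58% higher. Among the 3 chemokines at that level, Ccl2 was lower by this rule and Ccl12 and Ccl24 were inside the limits. At least 50 CPM and a 2-fold difference left 0.334% of 2691 genes lower and 0.409% higher. Ccl12, the only member of that level in microglia, was not past the 2-fold limit.

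**Figure D3:**
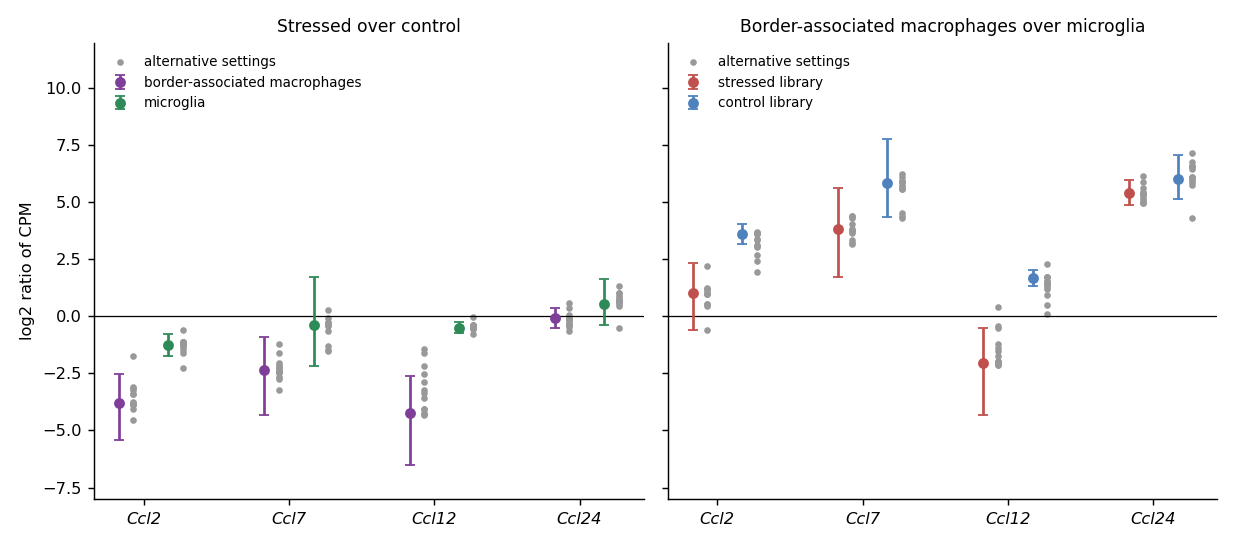
Log2 ratios of CPM for the 4 genes, stressed over control within 2 classes (left) and border-associated macrophages over microglia within each library (right). Coloured points with error bars are the values with exact 95% intervals, and grey points are the same ratio under the alternative settings, some of them bounds. In border-associated macrophages Ccl2, Ccl7 and Ccl12 lie at −3.79, −2.37 and −4.22, and Ccl24 at −0.06.

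Set against microglia of the same library, border-associated macrophages had higher levels of Ccl7 and Ccl24 in both libraries. Ccl24 was higher in them by a log2 ratio of 5.42 (4.87 to 5.97) in the stressed library and 6.04 (5.15 to 7.07) in the control library. Ccl7 was higher by 3.85 (1.72 to 5.64) and 5.83 (4.37 to 7.77). For Ccl2 the ratio was 1.05 in the stressed library, with an interval that includes 0 (−0.61 to 2.33), and 3.60 (3.17 to 4.05) in the control library, where it was 2.45 without the leading cell of each sum. Ccl12 stood lower in border-associated macrophages than in microglia of the stressed library, at −2.05 (−4.33 to −0.49), and higher in the control library, at 1.68 (1.34 to 2.02). The stressed value was −0.43 (−3.49 to 1.45) in thinned cells and turned to 0.43 (−0.05 to 0.89) with classes from Leiden clusters, where the border-associated cluster takes in 1 monocyte with 30 Ccl12 UMIs. The control value was 0.12 (−0.79 to 0.93) among cells with Xist and no Y-linked UMI, and 0.51 (−0.30 to 1.26) among cells with less of the dissociation response.

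All 4 chemokines were at least 2-fold higher in control border-associated macrophages than in control microglia, where 7.72% of 2993 genes of at least 50 CPM were higher and 12.1% lower. In the stressed library, 8.77% of 2804 such genes were at least 2-fold higher and 11.6% lower. Of the 2 members that reached 50 CPM there, Ccl24 was higher and Ccl12 lower.

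The classes therefore took very different parts of each library's transcripts. Of all Ccl2 UMIs, border-associated macrophages held 4.35% in the stressed library and 65.2% in the control library, and microglia held 75.7% and 27.8%. Unassigned cells held 20% of the stressed and 6.61% of the control Ccl2 UMIs. For Ccl12, border-associated macrophages held 0.594% and 35% and microglia 88.5% and 56.5%. For Ccl24 the border-associated parts were 39.1% and 90.9%, and for Ccl7 21.1% and 80%, with 52.6% of the stressed Ccl7 UMIs in microglia. These parts follow the number of cells in each class as well as their level, since stressed border-associated macrophages were also fewer.

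In monocytes the transcripts of the 4 genes came from few cells. Ccl2 had 0 UMIs in the monocytes of both libraries. In the stressed library the 4 UMIs of Ccl7 and the 30 of Ccl12 all lay in 1 of the 15 cells, which had 9971 UMIs and showed 7 border-associated and 9 monocyte markers. This cell also held 5 of the 19 Ccl24 UMIs of the class, and another, with 3 border-associated and 5 monocyte markers, held 12. The doublet scores of both cells, 0.0852 and 0.0661, were not among the highest of the library. The 23 control monocytes held 0, 0, 1 and 0 UMIs of Ccl2, Ccl7, Ccl12 and Ccl24. Whether the 2 stressed cells are pairs of cells in a droplet or cells with features of both classes was not tested. In neural cells the 4 genes together had 1 UMI in the stressed library, of Ccl24, and 2 in the control library, of Ccl2 and Ccl12.

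The receptor of the monocyte chemoattractants was found mainly in monocytes. Ccr2 had 38 UMIs in stressed and 29 in control monocytes, or 535 and 601 CPM, against 2.38 and 2.59 CPM in microglia and 0 UMIs in border-associated macrophages of either library. Ccr1 was at 49.9 and 53.4 CPM in stressed and control border-associated macrophages and at 27.9 and 22.0 CPM in microglia. Ccr3, the receptor of Ccl24, had 1 UMI among all classed cells, in a control border-associated macrophage. The stressed over control log2 ratio of Ccr1 was −0.10 (−1.62 to 1.26) in border-associated macrophages and 0.35 (−0.20 to 0.93) in microglia, with both intervals including 0.

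Of 20 other chemokine genes, 8 reached 10 CPM in border-associated macrophages, and 5 of them had enough counts for a ratio. Ccl3, Ccl6, Ccl9 and Pf4 were inside the 1.5-fold limits, 1 gene was lower and 0 were higher in stressed cells, against 19.8% and 16.8% of all genes, and the median log2 ratio of the 5 was −0.17. The lower one was Ccl4, an inflammatory CC chemokine, with 0 UMIs in stressed and 33 in control cells (110 CPM), a log2 ratio of −2.37 or lower. Ccl3, a ligand of Ccr1, stood at 49.9 and 53.4 CPM, Ccl6 at 107 and 123.5 CPM, and Pf4, or Cxcl4, at 5835 and 6560 CPM. Ccl11, another ligand of Ccr3, and Ccl8, a further member of the monocyte chemoattractant group, had 0 UMIs in border-associated macrophages and microglia of both libraries. In microglia, 1 of 6 measured genes was lower, Ccl9, at 172.5 and 270 CPM (−0.65, −0.82 to −0.48), and 0 were higher, where all genes gave 8.31% lower and 3.58% higher.

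Upstream and accompanying genes were measured from few UMIs in border-associated macrophages. Of 12 genes for cytokine inducers and the NF-kB arm, by which inflammatory stimuli switch on Ccl2, 6 were measured, 2 lower and 2 higher, where 19.8% and 16.8% of all genes were. Nfkb1 had 2 UMIs in stressed and 13 in control cells, and Rela, its partner subunit, 9 and 8 (14.3 and 43.4 CPM, and 64.1 and 26.7 CPM). The cytokine gene Il1b had 0 UMIs in both. In microglia 4 of 7 measured genes of this list were lower and 1 higher, where 8.31% and 3.58% of all genes were, with a median of −0.67. They included Rela at 19.6 and 36.9 CPM (−0.91, −1.40 to −0.41) and Tnfaip3, an inhibitor of NF-kB signalling, at 9.51 and 17.5 CPM (−0.88, −1.59 to −0.14). Of 11 genes of alternative activation, 7 were measured in border-associated macrophages, 2 lower and 0 higher, a lower share near the 19.8% of all genes. Il4ra, the interleukin-4 receptor chain, had 28.5 CPM in stressed and 66.7 CPM in control cells (−1.23, −3.24 to 0.35), and the mannose receptor gene Mrc1, which also served as a class marker, 1268 and 1421 CPM. Arg1 had 0 UMIs in the class.

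Other chemokines were compared between the classes in the same way. Of 20 other chemokines, 7 were measured in each library. Border-associated macrophages had 3 at least 1.5-fold higher and 3 lower than microglia in the stressed library, and 2 higher and 4 lower in the control library. Apart from Pf4, the higher ones rest on few UMIs in border-associated macrophages, 2 each in the stressed library and 3 in the control library. All genes of at least 10 CPM gave 24.9% higher and 25.5% lower in the stressed library, and 17.9% higher and 29% lower in the control library. Pf4 was higher by a log2 ratio of 8.11 in the stressed and 7.69 in the control library, whereas Ccl3 was lower, with ratios of −3.46 and −3.15.

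In microglia, Ccl2 was higher in the cells with Ccl3 or Ccl4, and Ccl12 was not. Of the stressed microglia, 481 had a Ccl3 or Ccl4 UMI and 625 had none, and of the control microglia 225 and 385. Ccl2 stood at 28.9 CPM (22.8 to 36.2) in cells with and 4.19 CPM (2.01 to 7.71) in cells without in the stressed library, and at 72.8 CPM (54.2 to 95.7) and 14.2 CPM (7.33 to 24.8) in the control library. Ccl2 was lower in the stressed library in cells of both kinds, with intervals that overlap slightly for the cells without. Ccl12 stood at 62.7 CPM (53.6 to 73.0) in cells with and 117 CPM (104 to 132) in cells without in the stressed library, against 121 CPM (96.9 to 150) and 126.5 CPM (104 to 153) in the control library. For Ccl12 the intervals of the libraries were separate in the cells with Ccl3 or Ccl4 and overlapped in the cells without, and the difference between these 2 kinds of cell was not tested. Cells with such a UMI were deeper, at a median of 5055 against 3427 UMIs in the stressed library and 2822 against 1941 in the control library, and the part of depth was not tested.

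**Figure D4:**
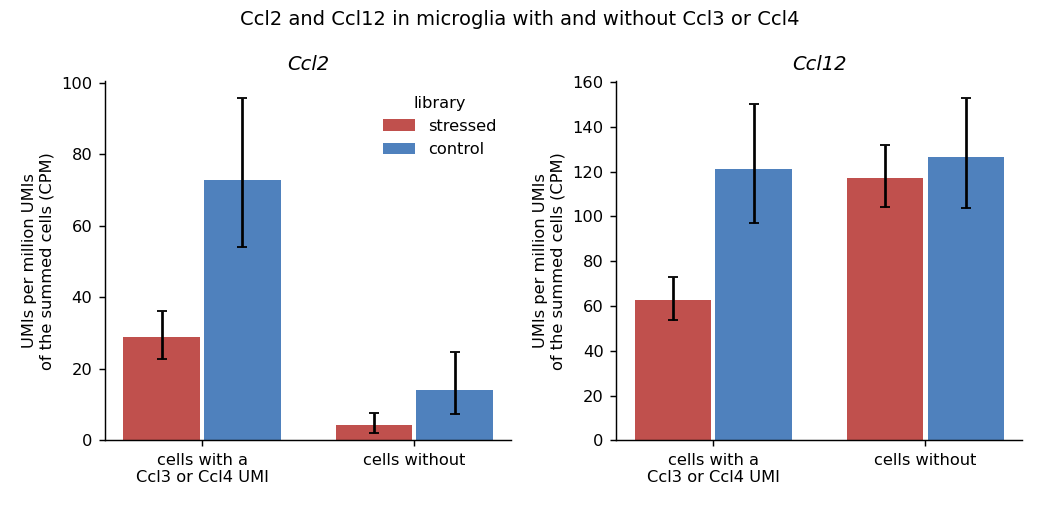
Ccl2 and Ccl12 level in microglia (CPM of the summed cells, linear axes from 0) for cells with and without a Ccl3 or Ccl4 UMI, stressed library in red and control library in blue, with exact 95% Poisson intervals. Ccl2 is higher in the cells with Ccl3 or Ccl4 in both libraries, and Ccl12 is lowest in the stressed cells with them, at 62.7 CPM.

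In control border-associated macrophages the same division gave opposite orders for Ccl2 and Ccl24. The 13 cells with a Ccl3 or Ccl4 UMI held 130 UMIs of Ccl2 (1948 CPM), against 18 (77.3 CPM) in the other 64 cells, and the cell with 91 UMIs is among the 13. Ccl24 stood at 225 CPM (126 to 371) and 537 CPM (447 to 639) in the same groups. The stressed library had 5 cells with and 17 without, which held 3 and 2 UMIs of Ccl2 and 2 and 61 UMIs of Ccl24.

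Within single cells, the monocyte chemoattractants were in part found together. Of the 18 control border-associated macrophages with Ccl2, 9 had Ccl12 (50%), against 23.7% of the 59 without Ccl2, and 5 had Ccl7, against 16.9%. Ccl24 was found in 8 of the 18 (44.4%) and in 54.2% of the other cells. In microglia, Ccl12 was found in 16 of 47 stressed cells with Ccl2 (34%) and 20% of the rest, and in 12 of 31 control cells with Ccl2 (38.7%) and 16.4% of the rest. Deeper cells show more of every gene, and cells with Ccl2 had medians of 6077 and 2650 UMIs in stressed and control microglia, against 3909 and 2147 in cells without. Control border-associated macrophages with Ccl2 were deeper as well, at a median of 4197 against 2808 UMIs. In the stressed border-associated macrophages, 4, 3 and 1 of 22 cells held Ccl2, Ccl7 and Ccl12. No cell there held Ccl2 together with Ccl7 or Ccl12, and the 1 cell with Ccl12 also held Ccl7. These are too few cells to tell how often the genes occur together.

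Cycling microglia, taken as those with an Mki67 or Top2a UMI, showed Ccl2 in 14 of 239 stressed cells (33 UMIs) and in 0 of 100 control cells, which allows 10.8 CPM at the upper limit of the interval. The stressed cycling cells stood at 22.4 CPM (15.4 to 31.5), above that limit and in the direction opposite to that of all microglia. These intervals leave out the spread between cells, and the 33 UMIs came from 14 cells. Stressed cycling cells were also deeper, at a median of 5243 against 3018 UMIs. The difference between the libraries in these cells was not tested. Ccl12 stood at 69.3 CPM (56.5 to 84.1) in stressed and 99.9 CPM (69.2 to 140) in control cycling microglia.

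Over the 8 sums of 4 classes in 2 libraries, the gene most like Ccl24 among 5084 was Fcna, which encodes ficolin A, with a Pearson r of 0.986 for log2(CPM + 10). Fcgr2b, an inhibitory Fc receptor gene (0.949), Ccl7 (0.935) and Pf4 (0.929) were also among its first 5. Fcna stood at 242 and 163.5 CPM in stressed and control border-associated macrophages and at 9.71 and 7.76 CPM in microglia. Ccl7 was most like Ccl24, followed by Fcna (0.886). The genes most like Ccl2 were Dpm3 (0.952) and Plau (0.942), the gene of urokinase plasminogen activator, and those most like Ccl12 were Dazap2 (0.972) and Ccnb2 (0.947), with Nfkb1 (0.919) among the first 5. Ccl2 and Ccl7, although neighbours separated by 8258 bases, gave 0.671, and Ccl2 and Ccl12 gave 0.538. These 8 points share libraries and depth, and r is given as a description only. Some of the sums rest on single cells: all 30 Ccl12 UMIs of stressed monocytes lay in 1 cell, and 61.5% of the Ccl2 UMIs of control border-associated macrophages in another. Nfkb1 had 2 UMIs in stressed border-associated macrophages and 5 in stressed monocytes.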

How the data were processed

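The authors deposited raw UMI counts per gene and cell barcode (droplet 3′ libraries of v3 chemistry), 1 table per library. Per the submitters' processing notes, the tools involved were STAR, Cell Ranger 3.0.0 and Seurat 2.4 and the builds GRCm38.p5 and mm10; which step each served is not given in the sources used here. Empty droplets, and hence free RNA, were not analysed, and cell annotation by the authors was not used here. The members and gene lists were chosen with earlier results of these data known.

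The cell filter required 500 detected genes and allowed 10% of UMIs from mitochondrial genes. A cell went to the class of 4 with most of 10 markers detected, when it led the others by at least 2 markers. Deposited counts were summed by class and library and divided by the class total (CPM). Sums have exact Poisson intervals, ratios exact conditional intervals and shares exact Clopper-Pearson intervals, all at 95% and covering counting error only. A sum of 0 was set to 3 counts in a ratio, and a share of 0 allows 3 cells of the total. Class sums held 140357 and 299710 UMIs in stressed and control border-associated macrophages and 5048307 and 1546593 UMIs in microglia, so 1 UMI is a larger step in border-associated macrophages than in microglia. For shares, each cell was thinned to 1000 UMIs. Doublets were kept.

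Named genes were the 4 chemokines, up to 4 members of each of 5 lists with the largest ratios, and the 5 genes most like each chemokine, of which some are printed. A result that the rule takes from the receptor list is not reported here. Genes shown for their level or as marker examples, and the cells with Ccl3 or Ccl4 and with Mki67 or Top2a, were chosen after values were seen. The alternatives used scanpy 1.11.5 with igraph 0.11.9 for Leiden clusters and doublet scores, edgeR 4.0.16 (TMM) and DESeq2 1.42.0 size factors for scaling only, and Python 3.11.15 with scipy 1.17.1 for intervals. The ratio step was tested on simulated counts. Positions and coding sequences come from GENCODE M21, and figures were drawn with matplotlib 3.10.9.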

Additional observations from a re-analysis of the deposited data

Results flagged for a closer look

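The difference between border-associated macrophages and microglia in Ccl12 had opposite signs in the 2 libraries. Its log2 ratio was −2.05 in the stressed library and 1.68 in the control library. The difference between these ratios was not tested, because each condition is 1 library. The stressed value rests on 3 UMIs in border-associated macrophages, and the control value on 119, of which 43 lay in 1 cell. With classes from Leiden clusters the stressed ratio was 0.43, so that both libraries had the same sign. The border-associated cluster there takes in 1 monocyte with 30 Ccl12 UMIs. With the leading cell of each sum left out of those classes, the stressed ratio did not reverse. It kept its sign in 12 of 13 alternatives.

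Cells that no class took also held Ccl24. It stood at 42.05 CPM (27.2 to 62.1) in the 122 stressed cells left unassigned, from 25 UMIs, and at 6.67 CPM (1.38 to 19.5) in the 163 control ones, from 3 UMIs. Of these UMIs, 16 and 1 lay in the 37 stressed and 33 control cells that showed at least 2 border-associated and at least 2 microglial markers. These 37 and 33 cells also held 16 and 4 UMIs of Ccl2 and 19 and 6 UMIs of Ccl12. The 22 stressed cells assigned to border-associated macrophages held 5 UMIs of Ccl2 and 3 of Ccl12. The stressed cell with most Ccl2, at 11 UMIs, was unassigned. Which class the unassigned cells belong to was not tested.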

How the results depend on the processing

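The 16 ratios were recomputed under up to 13 alternatives each, of which the Leiden classes without the leading cell were chosen after seeing the data. In all, 173 values stayed inside the interval of the reported ratio, 29 lay outside it and 1 reversed. Of the 29, 2 are bounds, which do not contradict the interval. Stressed over control in border-associated macrophages, Ccl2, Ccl7 and Ccl12 were below 0 under all 13, at −4.53 to −1.73, −3.23 to −1.19 and −4.31 to −1.42. With Leiden classes, Ccl12 was −1.42 in that comparison, and its ratio of border-associated macrophages to microglia in the stressed library reversed to 0.43, because that cluster joins monocytes and takes in the cell with 30 Ccl12 UMIs; Ccl2 in the control library was 3.15. Without the leading cell in these classes, Ccl12 was −2.51 for stressed over control in border-associated macrophages, and border-associated macrophages over control microglia gave 1.93 for Ccl2, 4.31 for Ccl7 and 0.93 for Ccl12. Without the leading cell in the marker classes these were 2.45 for Ccl2 and 1.22 for Ccl12, and the mean of per-cell CPM gave 3.03 and 1.30. Among cells with less dissociation response, stressed over control was −1.73 for Ccl2 and −1.58 for Ccl12 in border-associated macrophages (both bounds) and −0.58 for Ccl2 in microglia, and control border-associated macrophages over microglia was 2.70 for Ccl2 and 0.51 for Ccl12. Thinned cells gave −2.19 for Ccl12 and −0.63 for Ccl24 in border-associated macrophages and −2.26 for Ccl2 in microglia, stressed over control. Between the classes they gave −0.43 for Ccl12 in the stressed library and 3.08 for Ccl2 and 7.18 for Ccl24 in the control library. Cells with Xist and no Y-linked UMI gave 0.59 for Ccl24 in border-associated macrophages and −0.76 for Ccl12 and −0.49 for Ccl24 in microglia, stressed over control, and 0.12 for Ccl12 and 4.34 for Ccl24 between the control classes. The stricter filter gave −0.0060 for Ccl12 in microglia and 2.32 for Ccl12 between the control classes, and a gate lead of 3 markers gave 6.16 for Ccl24 between the stressed classes. Apart from the Leiden reversal and the alternatives' own construction, the cause was not tested. Ccl24 in border-associated macrophages kept its sign in 10 of 13 alternatives. TMM and DESeq2 factors shifted the microglial ratios of stressed over control by 0.11 and 0.12 and moved no ratio outside its interval. The fewer counts in Ccl7 left 10 alternatives with a value in microglia.

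Shares with a UMI stayed inside their intervals in 49 values and moved in 15, among them 9 of those without thinning. Counts of all genes past a limit, given as higher and lower in stressed border-associated macrophages, were 149 and 212 at 50 CPM, against 581 and 678 at 20 CPM, 42 and 58 at 100 CPM, 581 and 806 at 1 UMI, and 413 and 481 at 1.5-fold. In stressed microglia they were 11 and 9, against 31 and 39, 4 and 4, 480 and 625, and 42 and 85 in the same order. For border-associated macrophages over microglia they were 246 and 326 in the stressed library, against 723 and 809, 106 and 118, 4341 and 1023, and 513 and 650. In the control library they were 231 and 362, against 520 and 961, 113 and 152, 1439 and 1561, and 468 and 706. No paired analysis was possible because each condition is 1 library. The 22 stressed border-associated macrophages, with 1 UMI at 7.13 CPM, limit every ratio that uses them.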
